A study of Mus musculus with 4 samples.

Results

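The genes described here are the AP-1 and EGR immediate early transcription factors, 10 of the 19505 named genes on the array. They were taken by gene name, with earlier results of these data known, and are Fos, Fosb, Fosl2, Jun, Junb, Jund, Egr1, Egr2, Egr3 and Atf3. AP-1 is a family of dimers of basic leucine zipper proteins, in which a FOS protein pairs with a JUN protein, JUN proteins also pair with each other, and ATF3 joins the same partners. The EGR proteins bind DNA through zinc fingers. Most of these genes are silent or low in resting cells and are transcribed quickly, without new protein synthesis, when MAP kinases activate factors already present, such as the serum response factor SRF with its ELK partners, and CREB. In macrophages they follow growth factors, adhesion, phagocytosis and microbial ligands, and in cells taken from solid tissue they are also known to follow enzymatic digestion and sorting.

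The RNA came from heart cells that the labels call sorted macrophages. The C57BL/6N mice were aged 15 to 16 weeks and had undergone transverse aortic constriction (TAC), an operation that narrows the aorta and loads the left ventricle with pressure. The populations are called Ccrl2, CD163, Trem2 and CD74 after the titles of their libraries, and each gave 1 library on 1 Clariom S array. All of them share the strain, the operation and the tissue, and cells of 6 hearts were mixed before the sort, so no unoperated heart and no separate animals are among the groups. The labels disagree on the time after surgery (8 weeks in the source names, 1 week in the growth protocol), the source name of the CD74 library says CD9, and the growth protocol has Lyve1 in the place of CD163. With 1 library per population there is no spread between replicates, and no difference here carries a test, an SD or a p-value.

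Levels are the deposited values on the log2 scale, where 1 unit is a 2-fold difference, and they are compared between libraries for 1 gene at a time. Each library has a background ceiling, the 95th percentile among 1500 genes that heart and immune cells barely use (chemosensory receptors and keratin-associated proteins). It was 5.67 in Ccrl2, 6.28 in CD163, 5.51 in Trem2 and 6.53 in CD74. The scale ends at 19.93, and values within 0.015 of that are called saturated. Between 2 libraries, a gene counted as higher in the one where it exceeded the other by 1 unit or more and also cleared that library's ceiling. A fold against a value under its ceiling, or from a saturated value, is a lower bound.

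The libraries did not share a distribution, and their cells did not carry the same markers. Genes above the ceiling numbered 7454 in Ccrl2, 4984 in CD163, 8144 in Trem2 and 3621 in CD74. Of 10 macrophage markers, 10 lay above the ceiling in Ccrl2, CD163 and Trem2 and 7 in CD74, where the list ran from 3.90 to 15.86, against 9.39 to 19.93 in Ccrl2. Of 12 T and NK cell markers, 1 lay above the ceiling in Ccrl2, 1 in CD163, 8 in Trem2 and 10 in CD74, with list ranges of 4.37 to 6.16, 4.13 to 6.42, 4.55 to 9.71 and 5.51 to 13.01 in that order. The macrophage markers below the ceiling in the CD74 library were Fcgr1, Mertk and Cx3cr1, at 5.12, 3.90 and 5.13 (named after their values were seen). The 7 above it there were Lyz2 (15.86), Adgre1 (9.66), Csf1r (9.40), Itgam (8.62), C1qb (8.12), C1qa (7.97) and C1qc (7.79). Of 9 neutrophil markers, 4 lay above the ceiling in Ccrl2, 1 in CD163, 7 in Trem2 and 5 in CD74, with medians of 5.64, 4.96, 12.29 and 6.81 in that order. Of 9 cardiomyocyte markers, 9 lay above the ceiling in Ccrl2, 7 in CD163, 8 in Trem2 and 3 in CD74, and of 7 fibroblast markers 6, 2, 6 and 2. Of 8 endothelial markers, 5, 3, 5 and 1 lay above it in the same order, and of 7 B cell markers 6, 3, 7 and 6. In sorted bulk RNA, fewer cells of a type and less RNA per cell cannot be told apart.

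All 10 factors were measured above the ceiling in at least 1 library, and 8 of them in all 4. The FOS members had their highest value in Ccrl2 and their lowest in CD74. Fos, the founding FOS protein, which needs a JUN partner to bind DNA, had 19.62 in Ccrl2, 18.55 in CD163, 18.55 in Trem2 and 13.91 in CD74. Fosb, a close relative of Fos, had 19.03 in Ccrl2, 17.27 in CD163, 17.52 in Trem2 and 11.20 in CD74. For both, Ccrl2 stood alone at the top, CD163 and Trem2 lay within 0.25 of each other, and CD74 lay far under all. Fosl2, which encodes FRA2, a FOS protein that lacks the strong activation domain of Fos and often stays on longer, behaved otherwise. It had 9.99 in Ccrl2, 8.33 in CD163, 9.79 in Trem2 and 8.05 in CD74. On these deposited values Ccrl2 sat beside Trem2 and CD163 beside CD74. After quantile normalization Fosl2 had 9.28, 8.83, 9.02 and 9.08 in the same order, and that split was gone.

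The JUN members also differed in how CD163 stood to Trem2. Jun, the strongest activator of the JUN proteins, was saturated in Ccrl2 at 19.92 and had 18.74 in CD163, 18.92 in Trem2 and 12.27 in CD74. Junb, a JUN protein with weaker activation that can hold Jun back, had 16.38 in Ccrl2, 12.94 in CD163, 15.13 in Trem2 and 12.81 in CD74. Jund, the JUN protein present in most resting cells, had 16.81 in Ccrl2, 13.58 in CD163, 15.93 in Trem2 and 11.69 in CD74. For Jun the values of CD163 and Trem2 lay close together. For Junb and Jund CD163 lay more than 2 units under Trem2, and the Junb values of CD163 and CD74 were only 0.13 apart.

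Among the EGR genes and Atf3 the top of the scale set a limit. Egr1, the EGR factor most widely induced by growth signals, was saturated in Ccrl2 at 19.93 and had 19.79 in CD163, 19.79 in Trem2 and 14.44 in CD74. Atf3, a stress-induced factor that restrains inflammatory genes in macrophages, had 19.75 in Ccrl2, 19.47 in CD163, 19.47 in Trem2 and 13.29 in CD74. Both separated CD74 from the rest and left little room above CD163 and Trem2. Egr2, an EGR factor of myeloid development and of macrophages exposed to interleukin-4, lay lower on its own scale, with 10.82 in Ccrl2, 9.52 in CD163, 9.74 in Trem2 and 6.52, just under the ceiling, in CD74. Its order over the libraries was that of Fosb, Fosl2, Jun, Junb and Jund.

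Egr3, an EGR factor best known from lymphocytes and nerve, gave no usable pattern. It had 3 probe sets, and the one with the highest mean read 6.55 in Ccrl2, 6.16 (below the ceiling) in CD163, 5.99 in Trem2 and 6.74 in CD74. A second probe set read 6.00, 5.22, 6.98 and 5.04 in the same order, and the remaining probe set read 5.64, 5.46, 5.25 and 5.10, under the ceiling in each library. The 3 disagreed on which library was highest. The second probe set stood clear of the Trem2 ceiling of 5.51, and the others lay nearer to background.

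**Figure D1:**
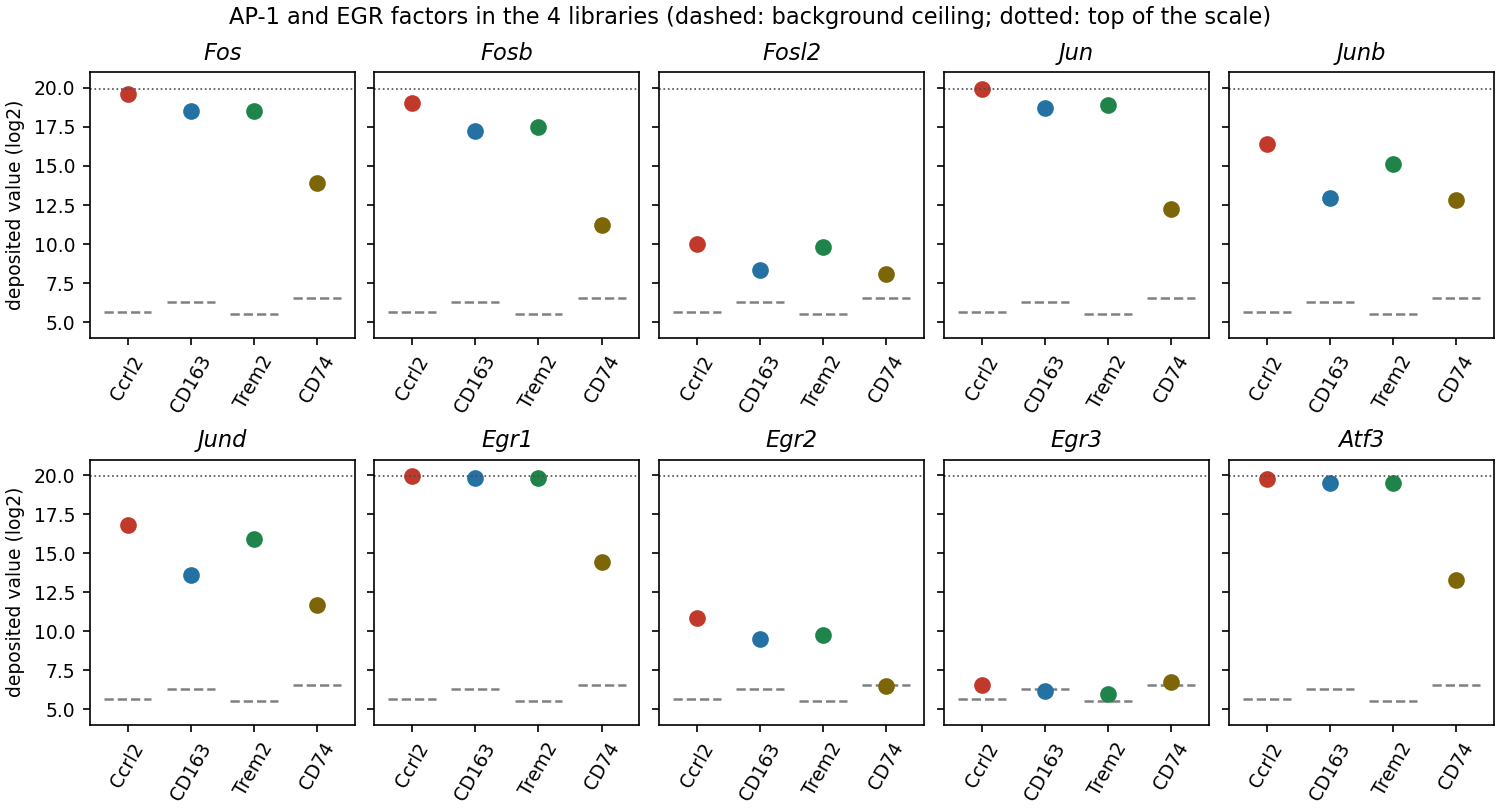
Deposited log2 value (vertical axis) of each of the 10 factors in the libraries Ccrl2, CD163, Trem2 and CD74 (horizontal axis), 1 point per library with no replicates. Dashed bars mark each library's background ceiling (5.51 to 6.53) and the dotted line the top of the scale at 19.93. CD74 is lowest for 9 of the factors, and CD163 lies more than 1 unit below Trem2 for Fosl2, Junb and Jund.

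Equal values were common near the top of the scale. Fos, Egr1 and Atf3 had the same value in CD163 and in Trem2 to both decimals. Among the 57 genes with a mean of 17 or more, 42.1% were identical in these 2 libraries, against 0.521% of the 9414 genes with a mean from 5 to 8. That share includes genes at the end of the scale in both libraries, such as Dusp1 and Zfp36, which are equal for that reason. Saturated genes numbered 16 in CD163 and 20 in Trem2. Ties below the top, where Fos, Egr1 and Atf3 lay in these libraries, were not counted apart. The distance between CD163 and Trem2 for these 3 genes is taken as not resolved.

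The promoters of 5 factors are shown, those of Junb and of Fos, Fosb, Jun and Egr2, whose values in CD163 and Trem2 were closer. They were thus chosen after the values were seen. RefSeq (GRCm38.p6) promoter windows, 250 bases before to 50 after an annotated start, were given for 8 of the 10 factors. Capitals mark matches on either strand to TGACG (the core of the CREB site, contained in the full site TGACGTCA), TGACATCA (the site in the Jun promoter to which JUN and ATF proteins bind), TATAAA, the CArG box bound by SRF, or GCGNGGGCG (an EGR site). Each sequence runs 5′ to 3′ along the gene.
Fos promoter, chr12:85473640-85473939, plus strand: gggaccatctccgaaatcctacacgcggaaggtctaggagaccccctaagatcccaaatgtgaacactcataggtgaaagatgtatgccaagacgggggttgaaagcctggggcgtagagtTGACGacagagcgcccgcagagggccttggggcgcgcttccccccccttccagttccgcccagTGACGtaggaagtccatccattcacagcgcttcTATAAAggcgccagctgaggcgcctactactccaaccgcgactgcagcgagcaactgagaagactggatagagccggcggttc
Fosb promoter, chr7:19309996-19310295, minus strand: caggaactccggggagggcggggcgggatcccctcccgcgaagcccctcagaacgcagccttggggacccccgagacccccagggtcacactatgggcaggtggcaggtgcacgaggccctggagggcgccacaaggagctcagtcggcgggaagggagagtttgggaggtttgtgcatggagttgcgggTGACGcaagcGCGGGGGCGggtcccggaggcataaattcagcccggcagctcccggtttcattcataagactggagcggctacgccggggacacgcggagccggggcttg
Jun promoter, chr4:95052173-95052472, minus strand: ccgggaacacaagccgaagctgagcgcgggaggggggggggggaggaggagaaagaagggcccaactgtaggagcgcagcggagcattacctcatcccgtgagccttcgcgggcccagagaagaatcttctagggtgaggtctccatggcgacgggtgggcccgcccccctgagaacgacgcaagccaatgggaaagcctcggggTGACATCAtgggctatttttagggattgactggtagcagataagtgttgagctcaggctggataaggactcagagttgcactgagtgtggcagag
Junb promoter, chr8:84978699-84978998, minus strand: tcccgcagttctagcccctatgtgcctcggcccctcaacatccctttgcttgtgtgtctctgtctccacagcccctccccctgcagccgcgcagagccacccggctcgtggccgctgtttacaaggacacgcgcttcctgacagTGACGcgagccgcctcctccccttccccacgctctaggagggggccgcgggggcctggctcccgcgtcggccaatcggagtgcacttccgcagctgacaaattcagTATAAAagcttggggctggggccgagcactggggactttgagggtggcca
Egr2 promoter, chr10:67537619-67537918, plus strand: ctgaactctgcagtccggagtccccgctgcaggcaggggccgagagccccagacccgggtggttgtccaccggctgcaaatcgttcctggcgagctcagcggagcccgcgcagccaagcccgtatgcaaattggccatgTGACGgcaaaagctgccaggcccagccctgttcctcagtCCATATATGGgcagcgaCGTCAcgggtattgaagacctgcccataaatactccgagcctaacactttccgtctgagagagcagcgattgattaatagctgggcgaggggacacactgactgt
In the Fos window TGACG began at bases -129 and -66 and TATAAA at -33, counted from the annotated start. In the Fosb window TGACG began at -60 and an EGR site at -50, and in the Jun window TGACATCA began at -45. In the Junb window TGACG began at -106 and TATAAA at 1. The Egr2 window shown is 1 of 5 annotated for that gene, and it held TGACG at -111, the same core on the other strand at -55 and a CArG box at -72.

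Over the 8 factors with a window, TGACG was found in 5 (Fos, Fosb, Junb, Egr2 and Atf3), beside 20.8% of all 32851 promoter windows. The factors were counted per gene, over any of its windows, and the shares per window, so the units differ for Egr2 with its 5 windows. The CArG box was found in Egr2 alone and in 1.63% of all windows, GCGNGGGCG in Fosb and Fosl2 and in 5.55%, TATAAA in Fos and Junb and in 13.6%, and TGACATCA in Jun and in 3.62%. The full site TGACGTCA and the AP-1 site TGANTCA, in 1.79% and 7.81% of all windows, were in none of the 8. The Jund window held none of these motifs. Sites more than 250 bases before a start were not searched, and Egr1 and Egr3 had no window. A motif missing here, such as the CArG box in Fos, may thus lie outside the window. Junb held TGACG, as Fos and Fosb did. A link between any of these motifs and the values in the libraries was not tested. A match is a description of letters in this window and not of a factor bound there.

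The first comparison set the Ccrl2 library, the population in the title of the study, against Trem2. The 9 factors other than Egr3 had a higher value in Ccrl2, on the deposited values, after quantile normalization and after centring each library on its genes measured everywhere. Egr3 was 0.56 higher on the probe set used, but its other probe sets gave 0.39 and -0.98 and the mean over probe sets -0.01. At least 2-fold higher were 5 of 10 (Fos, Fosb, Jun, Junb and Egr2) and lower 0, against 7.79% higher and 11.5% lower of the 8773 genes measured in either library. Fosb was 2.85-fold and Junb 2.38-fold higher, Egr2 2.11-fold, Fos 2.10-fold and Jun, saturated in Ccrl2, at least 2-fold. Jund was 1.84-fold higher, and Fosl2, Egr1, Egr3 and Atf3 differed by 0.14 to 0.56 units. The median difference of the 10 was 0.94, beside -0.08 over all measured genes. Against CD163 it was 1.24, so Trem2 was the nearer of these libraries to Ccrl2 on the deposited values. CD163 was the nearer one after quantile normalization (0.54, against 0.86 for Trem2) and after centring (0.155, against 1.08 for Trem2). Jun sat exactly on the 2-fold line, and after quantile normalization 4 of 10 were counted, Fos slipping to 0.91, against 5.72% of all genes. Of all genes counted in this pair, 40.4% were higher in Ccrl2 on the deposited values and 54.8% after centring.

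Against CD163 the factors differed widely in how far Ccrl2 stood above. Junb was 10.9-fold and Jund 9.38-fold higher in Ccrl2, Fosb 3.39-fold, Fosl2 3.16-fold, Egr2 2.46-fold, Jun at least 2.27-fold and Fos 2.10-fold. That made 7 of 10 higher and 0 lower, against 38.5% higher and 7.65% lower of 7891 genes. The median of the 10 was 1.24, beside 0.69 over all genes. Junb lay above 98.7% and Jund above 98.2% of all genes, while Fos lay above 64.2% and Jun above 67.5%. After quantile normalization, which brought the median of all genes to 0.19, Junb (2.21) and Jund (2.05) were the 2 still counted, against 22.1% of all genes, and Atf3 lay at -0.20. After centring, Junb (2.36) and Jund (2.15) were again the 2 counted, against 10.3% of all genes, while Fos (-0.02), Egr1 (-0.95), Egr3 (-0.70) and Atf3 (-0.81) turned negative. Of all genes counted in this pair, 83.4% were higher in Ccrl2 on the deposited values, 59.6% after quantile normalization and 30.6% after centring.

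Between CD163 and Trem2, 3 factors stood lower in CD163 on the deposited values and the rest differed little. For Fos, Egr1 and Atf3, equal in both libraries near the top of the scale, the distance is taken as not resolved. Junb was 4.56-fold, Jund 5.10-fold and Fosl2 2.75-fold lower in CD163, the only 3 of 10 at least 2-fold lower, against 38.7% of 8532 genes, so the count itself does not set the factors apart. None was at least 2-fold higher, against 7.63%. Fos, Fosb, Jun, Egr1, Egr2 and Atf3 lay between -0.25 and 0, beside a median of -0.69 over all genes. These 6 and the other 3 were grouped after the values were seen, so the distance between them is a description only. Of all genes, 8.56% lay under Jund, 10.5% under Junb and 24.7% under Fosl2 in this difference. The sign of the 6 depended on scaling, with 0.19 to 0.99 after quantile normalization and 0.98 to 1.23 after centring. Fosl2, Junb and Jund kept a negative sign under each, by smaller amounts. After quantile normalization Fosl2 lay at -0.19, beside a median of -0.20 over all genes. Junb and Jund were then the 2 of 10 counted as lower in CD163, against 22.7% of all genes. After centring Jund (-1.125) alone was counted as lower, against 10.1% of all genes. Junb lay at -0.965 and Fosl2 at -0.235 there, beside a median of 0.535 over all genes. The share of all counted genes that were higher in CD163 was 16.5% on the deposited values, 40.8% after quantile normalization and 70.5% after centring.

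**Figure D2:**
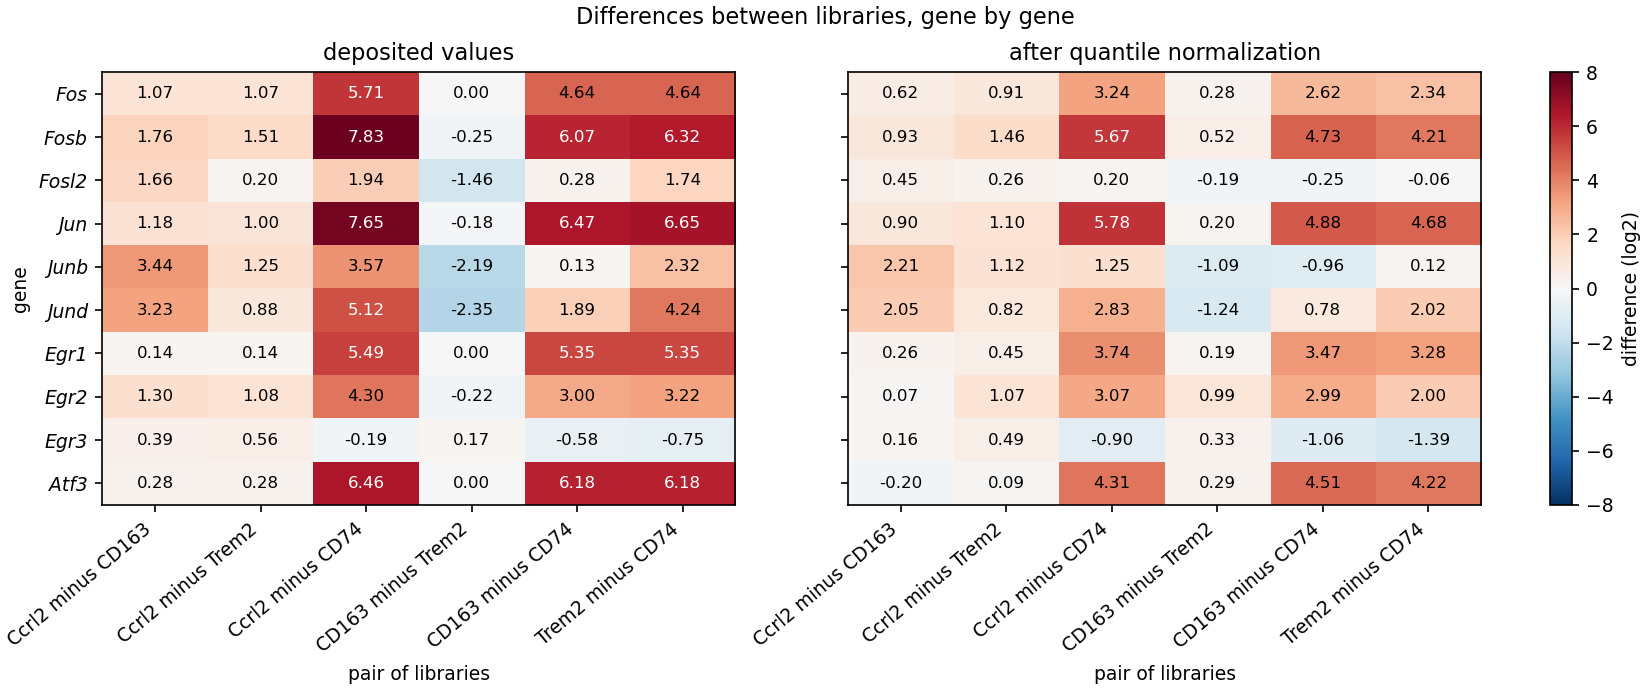
Difference in log2 units between the libraries of each pair (columns, first minus second) for each factor (rows), from the deposited values (left) and after quantile normalization (right). Red is higher in the first library and blue lower. Junb and Jund are 3.44 and 3.23 higher in Ccrl2 than in CD163 and 2.19 and 2.35 lower in CD163 than in Trem2, where the other FOS, JUN and EGR genes except Fosl2 lie near 0 on the deposited values.

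The CD74 library had the lowest value of every factor but Egr3. Against it, the Ccrl2 library was at least 2-fold higher in 9 of 10 and lower in 0, against 48.8% and 9.01% of 7902 genes. Fosb was 228-fold higher in Ccrl2, Jun at least 201-fold, Atf3 88.0-fold, Fos 52.3-fold, Egr1 at least 44.9-fold, Jund 34.8-fold, Egr2 at least 19.6-fold, Junb 11.9-fold and Fosl2 3.84-fold. Folds of this size rest on values near the top of the scale, and after quantile normalization Fosb was 5.67 and Jun 5.78 units higher in Ccrl2 in place of 7.83 and 7.65, and Fosl2 0.20. The median difference of the 10 was 5.31, beside 0.96 over all genes, or 3.15 beside 0.36 after quantile normalization. Of all genes counted in this pair, 84.4% were higher in Ccrl2, against 62.0% after quantile normalization and 44.8% after centring.

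The Trem2 library gave a like picture against CD74, with 9 of 10 factors at least 2-fold higher and 0 lower, against 50.5% and 7.62% of 8522 genes. Jun was 100-fold, Fosb 79.9-fold and Atf3 72.5-fold higher in Trem2, and Junb 4.99-fold and Fosl2 3.34-fold. Fosl2 turned to -0.06 after quantile normalization, and Junb lay at 0.125. Of all genes counted in this pair, 86.9% were higher in Trem2, against 64.4% after quantile normalization and 43.3% after centring.

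The CD163 library was at least 2-fold higher than CD74 in 7 of 10 and lower in 0, against 34.1% and 17.5% of 5842 genes. Jun was 88.6-fold higher in CD163, Atf3 72.5-fold, Fosb 67.2-fold, Egr1 40.8-fold, Fos 24.9-fold and Egr2 at least 7.94-fold. Jund was 3.71-fold higher, while Junb (0.13) and Fosl2 (0.28) hardly differed on the deposited values and lay at -0.96 and -0.25 after quantile normalization. The 3 comparisons with CD74 share that library, so their likeness is no separate support. Of all genes counted between CD163 and CD74, 66.1% were higher in CD163, against 56.0% after quantile normalization and 54.9% after centring. Set against the mean of the other 3 libraries, the median of the 10 factors was 2.48 in Ccrl2, 0.84 in CD163, 1.44 in Trem2 and -4.37 in CD74. The medians of all measured genes were 0.39, -0.28, 0.56 and -0.59 in that order. With CD74 left out of the mean, the median of the factors was 1.08 in Ccrl2, -0.72 in CD163 and -0.25 in Trem2.

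The low factors in CD74 went with low macrophage markers and high T and NK cell markers in the same library. Against CD74, all 10 macrophage markers were at least 2-fold higher in Ccrl2, with a list median of 5.24, and 10 of 12 T and NK cell markers at least 2-fold lower. The shares of all genes were 48.8% higher and 9.01% lower. Csf1r, a colony-stimulating factor receptor gene, had 19.59 in Ccrl2 and 9.40 in CD74, and Gzma, a granzyme, 4.54 in Ccrl2 and 13.01 in CD74. The controls bioB, bioC and bioD, spiked in before hybridisation, read 8.29, 9.24 and 10.77 in Ccrl2 and 6.15, 7.57 and 10.31 in CD74, while cre read 11.17 and 12.34. The CD163 library read higher in all of them than Trem2, with 8.49, 10.46 and 12.62 for bioB, bioC and bioD and 13.16 for cre, against 8.12, 9.20, 10.75 and 11.07 in Trem2. The part of cell makeup and of array performance in the CD74 values, and of array performance in the low Fosl2, Junb and Jund of CD163, was not tested.

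**Figure D3:**
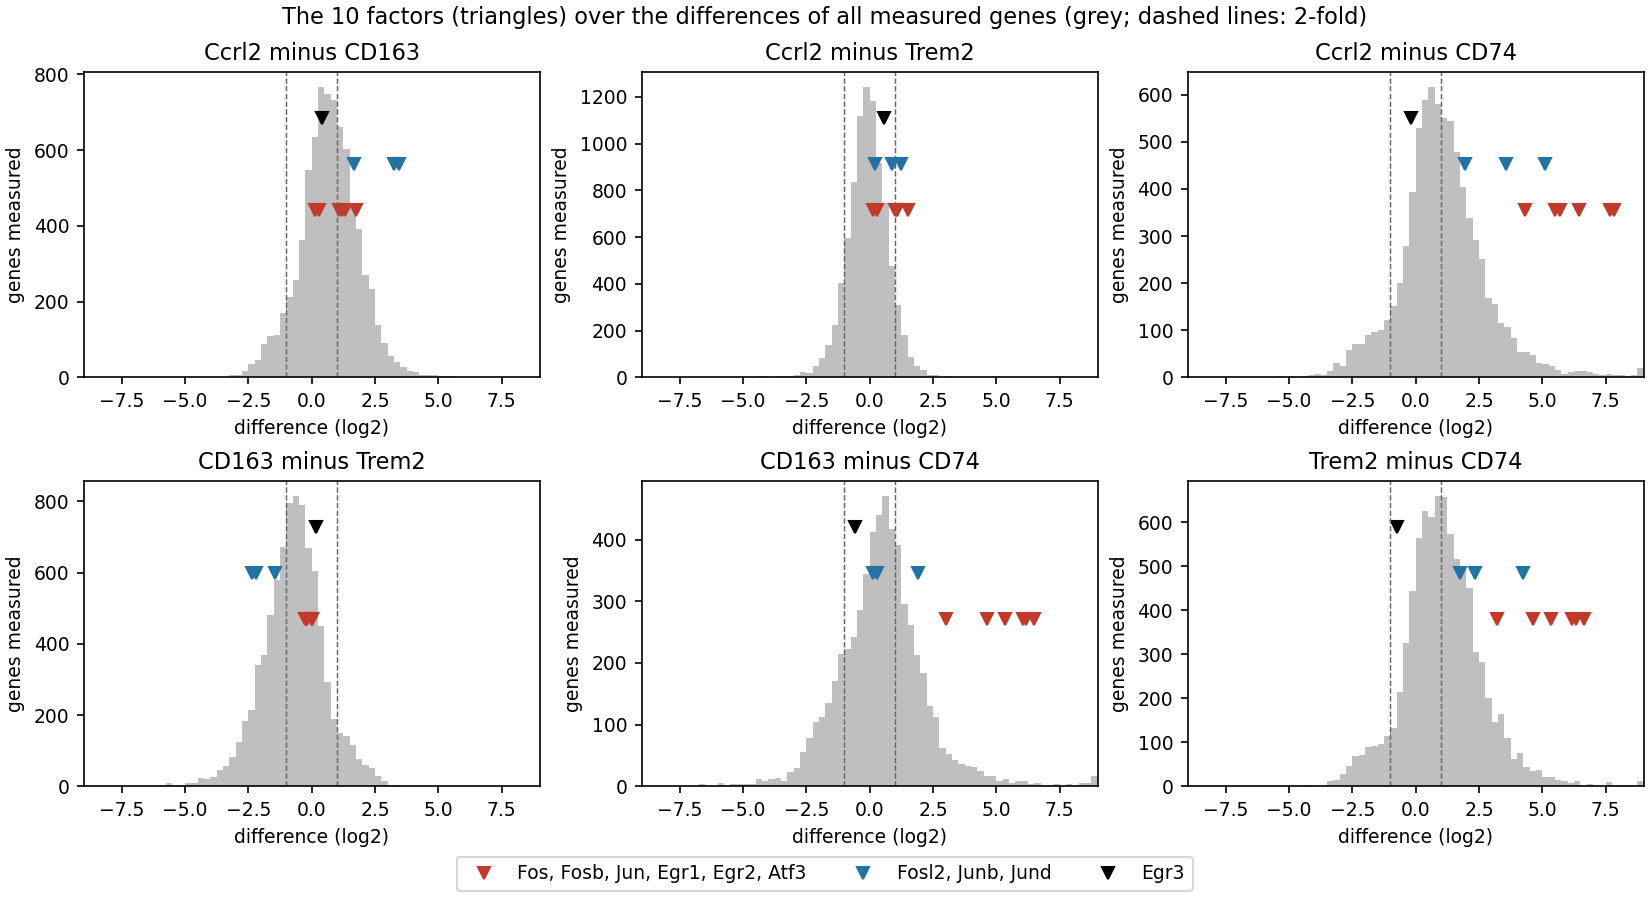
Number of genes (vertical axis) by their difference in log2 units (horizontal axis) for each pair of libraries, over genes above the ceiling in either library (grey, with values beyond 9 drawn at the edge). Triangles are the 10 factors, placed at arbitrary height, and dashed lines mark 2-fold. Fos, Fosb, Jun, Egr1, Egr2 and Atf3 lie at 3 to 7.83 in the pairs with CD74, far right of the grey peak, and Fosl2, Junb and Jund lie left of them in the pair of CD163 and Trem2 and in that of CD163 and CD74.

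Other immediate early genes did not all follow. Of 36, 7 were at least 2-fold higher in Ccrl2 than in Trem2 and 4 lower (median 0.31), 21 higher and 0 lower in Ccrl2 than in CD163 (median 1.59), and 0 higher and 16 lower in CD163 than in Trem2 (median -0.93). Against CD74, 25 were higher in Ccrl2 and 6 lower (median 2.76). Measured in either library were 34 of the 36 for Ccrl2 and Trem2, and 33 in the other pairs named here. The shares of all genes were 7.79% higher and 11.5% lower for Ccrl2 minus Trem2, and 38.5% and 7.65% for Ccrl2 minus CD163. They were 7.63% and 38.7% for CD163 minus Trem2, and 48.8% and 9.01% for Ccrl2 minus CD74. After quantile normalization 9 were higher and 11 lower in CD163 than in Trem2 (median -0.025), against 15.7% and 22.7% of all genes. In Ccrl2 minus CD163, 10 were then higher and 1 lower (0.49), against 22.1% and 15%. In Ccrl2 minus CD74, 17 were then higher and 6 lower (1.15), against 33.2% and 20.3%. Ccn1, a matricellular protein gene, had 15.01 in Ccrl2, 13.83 in CD163, 13.25 in Trem2 and 4.67 in CD74. Rhob, a small GTPase gene, had 11.75, 9.98, 11.50 and 3.84, and Ier3, a survival gene, 12.85, 12.53, 11.79 and 5.82 in the same order, CD74 being below its ceiling for all of these. Dusp5, which encodes a phosphatase of the MAP kinase ERK, ran the other way, with 8.86 in Ccrl2, 5.71 (below the ceiling) in CD163, 11.38 in Trem2 and 13.36 in CD74.

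The 6 genes lower in Ccrl2 than in CD74 were Dusp5 (-4.50), Nr4a2 (-2.24), Btg1 (-1.86), Nr4a3 (-1.72), Zfp36l2 (-1.60) and Dusp2 (-1.09), named after their values were seen. Btg1 encodes an antiproliferative protein and Zfp36l2 an RNA decay factor, and Nr4a2 and Nr4a3 encode orphan nuclear receptors that are also immediate early. The CD74 library thus held high values of some rapidly induced genes beside its low Fos, Fosb and Jun. Nr4a1, the remaining NR4A receptor and also named after its values were seen, had 15.57 in Ccrl2, 10.85 in CD163, 15.23 in Trem2 and 12.39 in CD74, the lowest value being that of CD163 and not that of CD74. Dusp1, a MAP kinase phosphatase gene named likewise, was saturated in each of the 4 libraries.

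Upstream of the factors stand SRF, its partners and CREB. Of 8 SRF, TCF and CREB regulators, 1 was at least 2-fold higher in Ccrl2 than in Trem2 and 2 lower (median -0.31), 3 higher and 0 lower in Ccrl2 than in CD163 (0.67), 0 higher and 5 lower in CD163 than in Trem2 (-1.20), and 4 higher and 0 lower in Ccrl2 than in CD74 (1.22). Between CD163 and Trem2, 38.7% of all genes were lower and the median of all genes was -0.69. After quantile normalization 3 of the 8 were lower, against 22.7% of all genes. The shares of all genes higher in Ccrl2 were 7.79% against Trem2, 38.5% against CD163 and 48.8% against CD74. All 8 were measured in the pairs with Trem2, and 6 in Ccrl2 against CD163 and against CD74. Mrtfb, an SRF coactivator gene, had 9.29 in Ccrl2, 6.08 (below the ceiling) in CD163, 8.19 in Trem2 and 7.81 in CD74. Creb1, which encodes CREB, had 8.60, 7.54, 8.64 and 5.84 (below the ceiling), and the ELK genes Elk4 and Elk3 had 8.81, 6.62, 9.29 and 8.50, and 7.14, 6.87, 8.17 and 6.02 (below the ceiling).

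The MAP kinase cascade carries signals to those regulators. Of 13 genes, 1 was at least 2-fold higher in Ccrl2 than in Trem2 and 0 lower (median -0.16), 6 higher and 0 lower in Ccrl2 than in CD163 (0.95), 0 higher and 7 lower in CD163 than in Trem2 (-1.06), and 7 higher and 0 lower in Ccrl2 than in CD74 (1.77). After quantile normalization 3 of them were lower in CD163 than in Trem2, against 22.7% of all genes. On the deposited values 38.7% of all genes were lower in that pair. The shares of all genes higher in Ccrl2 were 7.79% against Trem2, 38.5% against CD163 and 48.8% against CD74. In each of these pairs 12 of the 13 were measured in either library. Map3k1, a kinase upstream of JNK, had 9.02 in Ccrl2, 6.10 (below the ceiling) in CD163, 9.96 in Trem2 and 9.01 in CD74. Mapk14, the p38 alpha kinase, had 9.67, 8.81, 10.49 and 6.70, Map3k8, a kinase of the Toll-like receptor pathway, 9.28, 7.92, 8.28 and 5.50 (below the ceiling), and Rps6ka3, a kinase under ERK, 8.43, 8.28, 9.42 and 5.98 (below the ceiling).

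Relatives of the factors can take their partners or sites. Of 10 AP-1 relatives with a probe set, 0 were at least 2-fold apart between Ccrl2 and Trem2, 1 was higher and 1 lower in Ccrl2 than in CD163, 1 higher and 1 lower in CD163 than in Trem2, and 5 higher and 0 lower in Ccrl2 than in CD74. In each of these pairs 8 of the 10 were measured in either library. The shares of all genes were 7.79% higher and 11.5% lower for Ccrl2 minus Trem2, and 38.5% and 7.65% for Ccrl2 minus CD163. They were 7.63% and 38.7% for CD163 minus Trem2, and 48.8% and 9.01% for Ccrl2 minus CD74. After quantile normalization 0 were higher and 3 lower in Ccrl2 than in CD163, against 22.1% and 15% of all genes. Between CD163 and Trem2, 3 were then higher in CD163 and 0 lower, against 15.7% and 22.7%. Maf, a large MAF factor of macrophages, was highest in CD163, with 10.61 in Ccrl2, 11.51 in CD163, 9.99 in Trem2 and 7.51 in CD74. Jdp2, a repressor that pairs with JUN proteins, had 9.86, 7.87, 9.97 and 6.75 in the same order, Atf2 9.42, 8.51, 8.92 and 6.82, and Mafk 7.59, 6.85, 6.91 and 5.14 (below the ceiling). Nab2, a corepressor that EGR proteins induce and bind, had 6.83 in Ccrl2, 6.65 in CD163, 7.00 in Trem2 and, under its ceiling, 6.45 in CD74. Its relative Nab1 had 6.98, 6.07 (below the ceiling), 7.37 and 7.27, and Egr4 and Wt1 were below the ceiling in each library.

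Next came genes known as AP-1 or EGR targets. Of 17, 7 were at least 2-fold higher in Ccrl2 than in Trem2 and 5 lower (median 0.77), 12 higher and 0 lower in Ccrl2 than in CD163 (2.52), 1 higher and 9 lower in CD163 than in Trem2 (-1.10), and 13 higher and 0 lower in Ccrl2 than in CD74 (4.42). Measured in either library were 15 of the 17 in the pairs with Trem2 and 14 in the others. The shares of all genes were 7.79% higher and 11.5% lower for Ccrl2 minus Trem2, and 38.5% and 7.65% for Ccrl2 minus CD163. They were 7.63% and 38.7% for CD163 minus Trem2, and 48.8% and 9.01% for Ccrl2 minus CD74. After quantile normalization 2 were higher and 6 lower in CD163 than in Trem2 (median -0.21), against 15.7% and 22.7% of all genes. In Ccrl2 minus CD163, 7 were then higher and 0 lower (1.26), against 22.1% and 15%. Tnf, an inflammatory cytokine gene, had 18.78 in Ccrl2, 15.38 in CD163, 15.04 in Trem2 and, under its ceiling, 5.55 in CD74. Hmox1, which encodes a haem-degrading enzyme, had 19.58, 19.58, 17.96 and 7.34, Cdkn1a, a cell cycle inhibitor, 17.67, 15.64, 16.40 and 9.93, and Ccl2, a monocyte chemokine, 13.42, 11.95, 12.27 and 5.86 (below the ceiling). Cdkn1a and Ccl2 had Trem2 between Ccrl2 and CD163, as Fosb did, and Tnf and Hmox1 had CD163 at or above Trem2.

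Heat shock genes, which also respond to handling of cells, were high in the same 3 libraries. Of 10, 3 were at least 2-fold higher in Ccrl2 than in Trem2 and 0 lower (median 0.62), 4 higher and 0 lower in Ccrl2 than in CD163 (0.96), 1 higher and 3 lower in CD163 than in Trem2 (-0.57), and 10 higher in Ccrl2 than in CD74 (4.07). The shares of all genes higher in Ccrl2 were 7.79% against Trem2, 38.5% against CD163 and 48.8% against CD74. For CD163 minus Trem2 they were 7.63% higher and 38.7% lower, so the counts in the pairs with CD163 lay near the shares of all genes. After quantile normalization the sign turned in CD163 minus Trem2, with 3 higher and 0 lower (median 0.58), against 15.7% and 22.7% of all genes. In Ccrl2 minus CD163, 2 were then higher and 1 lower (-0.018), against 22.1% and 15%. In Ccrl2 minus CD74, 9 stayed higher (2.86), against 33.2%. Hspa1b, an inducible HSP70 gene, had 18.94 in Ccrl2, 18.45 in CD163, 18.94 in Trem2 and 8.24 in CD74, and its copy Hspa1a 17.94, 16.41, 17.42 and 8.07. These copies are nearly identical and their probes may share signal. Hsp90aa1 had 19.59, 19.16, 18.87 and 13.01, and Hsph1 14.70, 12.33, 12.47 and 8.25. The part of tissue handling in the levels of the 10 factors was not tested.

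**Figure D4:**
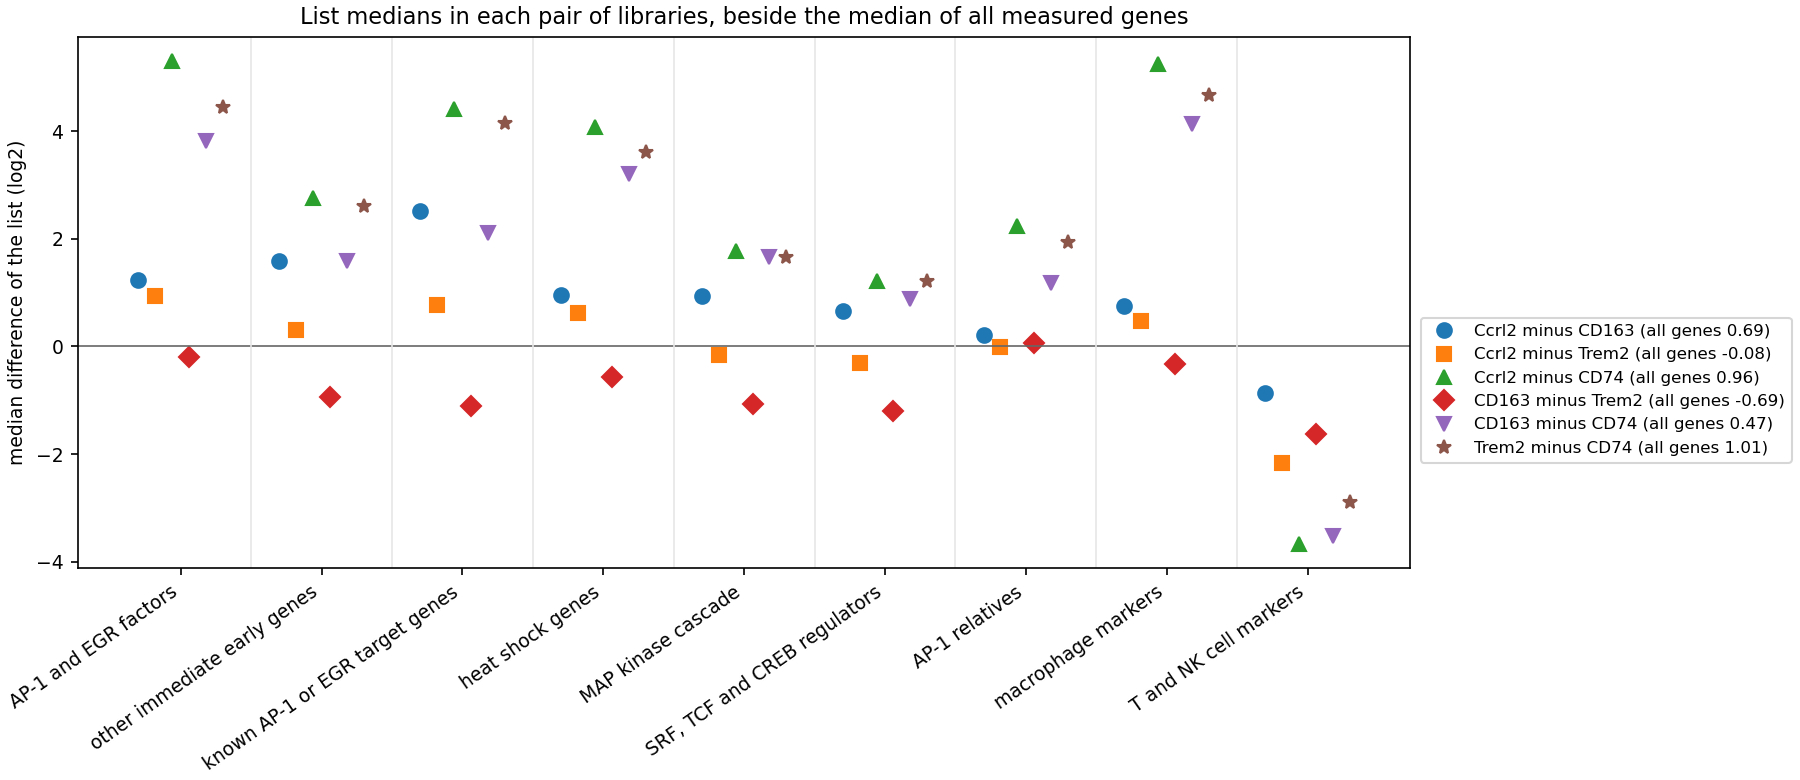
Median difference in log2 units (vertical axis) of each gene list (horizontal axis) in each pair of libraries (marks, first minus second), over list members above the ceiling in either library, with the median of all measured genes in the legend. The factors lie at 5.31, 3.82 and 4.44 in the pairs with CD74 and the T and NK cell markers at -3.67, -3.53 and -2.89.

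Genes with the pattern most like the median of the factors were found by centring each of 9346 measured genes on its mean over the 4 libraries. The measure was the largest deviation in any library from the median profile of the factors, which was 1.86 in Ccrl2, 0.63 in CD163, 1.08 in Trem2 and -3.28 in CD74. The nearest were Zfp992 (deviation 0.14), Gna12 (0.14), Tm6sf1 (0.15), Hacd4 (0.20) and Camk1d (0.23). Zfp992 had 10.51 in Ccrl2, 9.16 in CD163, 9.72 in Trem2 and 5.28 in CD74, and Gna12 had 10.51, 9.34, 9.67 and 5.41, both below the ceiling in CD74 only. Of the factors themselves, Fos (0.47), Egr2 (0.65) and Egr1 (0.77) lay closest to the median profile, with 29, 77 and 136 other genes closer than they were. Egr3 (3.66), Fosl2 (2.29) and Junb (2.01) lay farthest, followed by Jun (1.91), Fosb (1.775), Jund (1.55) and Atf3 (1.425). Even for Atf3, 652 other genes were closer. The median profile thus stands for Fos, Egr2 and Egr1 and not for the rest. With 4 libraries, 1 of them low in most macrophage genes, such a profile is shared by many genes.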

How the data were processed

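RNA of 4 sorted heart cell populations, called macrophages in the labels, was measured on Clariom S mouse arrays, 1 array per population. The authors deposited log2 values, made with Robust Multichip Average, per the labels' protocols. GeneSpring GS 11 and Affymetrix Expression Console are named, per the submitters' processing notes. Scaling between arrays beyond that is not given in the sources used here. Of 28846 probe sets, 6640 were controls, the platform annotation gave 19572 a single symbol, 2634 none and 0 several. A gene with several probe sets (55 genes) was represented by the one with the highest mean, which left 19505 genes.

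Differences, background ceilings and counts were computed with Python 3.11.15, numpy 2.4.6 and pandas 2.3.3, and figures with matplotlib 3.10.9. With 1 library per group no test was made, and precision is limited by how many arrays there are. Alternatives were quantile normalization, median centring, other ceilings and fold thresholds, no background filter, the mean over probe sets, and leaving out a library, Egr3 or saturated members. Named genes were the 10 factors, up to 4 genes of each other list with the largest range, the EGR relatives and the 5 nearest in pattern. Outside that rule, Fcgr1, Mertk, Cx3cr1, Lyz2, Adgre1, Itgam, Nr4a1, Nr4a2, Nr4a3, Btg1, Zfp36l2, Dusp1 and Dusp2 were named after their values were seen. The members and lists were chosen with earlier results of these data known. The Cd74 gene was not analysed here.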

Additional observations from a re-analysis of the deposited data

How the results depend on the processing

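No paired analysis was possible because each population had 1 library. After quantile normalization the members at least 2-fold higher in Ccrl2 than in CD163 numbered 2 (22.1% of all genes), with a median of 0.54. The median was 3.15 for Ccrl2 minus CD74, 2.81 for CD163 minus CD74 and 2.18 for Trem2 minus CD74, with 1 member (Egr3) lower in each of the last 2 pairs (26.5% and 18.1% of all genes), and Fosl2 in Trem2 minus CD74 turned to -0.061. After median centring 2 members were higher in Ccrl2 than in CD163 (10.3% of all genes, median 0.155) and Fos turned to -0.015. Centring also gave 1 member lower in Ccrl2 than in CD74 (21.5% of all genes, median 3.94), 5 higher and 1 lower in CD163 than in Trem2 (24.1% and 10.1%, median 1.025) and 1 lower in Trem2 than in CD74 (19.7%, median 2.935). At 4-fold, 2 members were higher in Ccrl2 than in CD163 and 0 in Ccrl2 than in Trem2, and at 1.5-fold 1 was lower in Trem2 than in CD74. Shares of all genes at 4-fold and 1.5-fold were not computed, so these counts do not set the members apart from other genes. Without the saturated members the medians were 4.71 (Ccrl2 minus CD74), 2.445 (CD163 minus CD74) and 3.73 (Trem2 minus CD74), and without Egr3 CD163 minus CD74 was 4.64, both alternatives chosen after seeing the data. Against the mean of the other libraries, Ccrl2 had a median of 3.38 without Trem2 and 1.08 without CD74, CD163 had 1.855 without Ccrl2 and -0.72 without CD74, and Trem2 had 2.4975 without Ccrl2 and -0.2525 without CD74. Without CD74, CD163 minus the others turned to -0.535 for Fos, -1.005 for Fosb, -0.68 for Jun, -0.07 for Egr1 and -0.14 for Atf3, and Trem2 minus the others to -0.535 for Fos, -0.63 for Fosb, -0.41 for Jun, -0.07 for Egr1 and -0.14 for Atf3. The cause was not tested. The top of the scale limits Jun and Egr1 in Ccrl2, and low values and disagreeing probe sets limit Egr3.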
